A study of Mus musculus with 2 samples.

Results

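The 10 genes described here encode the receptors and ligands of the VEGF and angiopoietin systems: the receptor tyrosine kinases Kdr, Flt1, Flt4, Tek and Tie1, the neuropilin co-receptors Nrp1 and Nrp2, and the ligands Vegfa, Vegfc and Pgf. They were chosen by name from 29453 gene columns of the spliced and unspliced count matrices, and all 10 were present in both layers. Cells of mouse chimeras were profiled by droplet-based scRNA-Seq, to compare Gata1- and wildtype cells that had developed in the same embryos. The embryos were made by injecting tdTomato-expressing mouse ESCs into wildtype C57BL/6 blastocysts of embryonic day 3.5. The tdTom+ fraction holds the progeny of 1 ESC clone, with a Cas9-made frameshift of 38 base pairs in exon 4 of Gata1, which the labels write as Gata1-/-. The tdTom- fraction holds the wildtype host cells. Whole embryos were collected at E8.5 (E8.6 in the tdTom- label), 6 of them were pooled, and each fraction was sorted by tdTomato fluorescence and gave 1 library. The host cells grew beside mutant cells, and the fractions also differ in cell source and in tdTomato, so that an effect of the genotype cannot be told apart from these differences.

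VEGF-A acts through KDR (VEGFR2), the main signalling receptor of the endothelium, and also binds FLT1 (VEGFR1), which holds the ligand tightly and signals weakly, so that it works largely as a decoy. PGF binds FLT1 but not KDR, and VEGF-C binds FLT4 (VEGFR3), the receptor known for lymphatic growth, as well as KDR. Neuropilins bind VEGF family ligands beside the kinases and are also receptors of class 3 semaphorins, which guide axons and vessels. TEK (TIE2) is the receptor of the angiopoietins, and TIE1 is a related receptor without a well-defined ligand of its own that pairs with TEK. In the mouse conceptus at this stage, Kdr marks the mesoderm from which both endothelium and the first blood cells arise, and mice without Kdr form neither.

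The tables held 8981 tdTom+ and 9252 tdTom- barcodes, with 167940767 and 157174026 spliced UMIs (unique molecular identifiers, each standing for 1 captured molecule). The median depth was 17598 and 15996 spliced UMIs per cell, and 18 barcodes occurred in both libraries. After doublet removal, 8582 tdTom+ and 8720 tdTom- cells remained in 36 clusters. Gata1 itself gave 1130 UMIs (6.73 CPM, the gene's UMIs scaled to a fixed total of spliced UMIs) in the tdTom+ and 4600 (29.3 CPM) in the tdTom- library. These tags come from near the transcript's end and do not read the deletion in exon 4. Among pooled blood cells its level was 30.1 CPM (tdTom+) against 133 CPM (tdTom-). With 1 library per fraction there is no replicate, so no test between fractions was possible. Differences are given as log2 folds of tdTom+ over tdTom- with 95% exact intervals that cover counting error only, and a gene was compared where both fractions together had at least 100 UMIs and each had at least 50 cells. A gene is called here where its log2 fold is beyond 1 in either direction. Where a pair of values is given, the first is that of tdTom+ cells and the second that of tdTom- cells, unless stated otherwise.

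Cell classes were named from marker genes after clustering without the 10 genes. The endothelial-like class held 507 tdTom+ cells (5.91%) and 376 tdTom- cells (4.31%). In its sub-clusters between 4 and 9 of the 9 endothelial markers were raised, Esam, Plvap, Cldn5 and Egfl7 in each of them. The sub-cluster with 4 holds 52 cells led by Etv2, Kdr and Gadd45g. In these cells Cdh5, Pecam1, Emcn, Ramp2 and Icam2 were not raised, so their endothelial name rests on fewer markers. The allantois-like class held 743 and 398 cells. The blood cells separated by fraction: 1412 of 1417 tdTom+ blood cells were blood progenitor-like, with Gata2, Myb and Runx1 among their leading genes, whereas 1390 of 1448 tdTom- blood cells were erythroid-like, led by globin genes, and 53 were megakaryocyte-like. A sub-cluster of 207 tdTom+ and 28 tdTom- cells, led by the myeloid genes Fcer1g and Alox5ap, had 7 of 9 endothelial and 5 of 6 myeloid markers raised and stayed without a class name.

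By class, the receptor kinases other than Tie1 were highest in the endothelium, while the neuropilins and ligands reached their highest levels elsewhere. Over both fractions, Kdr, Flt1, Flt4 and Tek had their highest level in the endothelial-like class, 4 of the 10 genes. For Tek in tdTom- cells, the endothelial-like interval (65.4 to 78.9 CPM) overlapped that of amnion and extraembryonic mesenchyme-like cells (60.6 to 73.0 CPM). The endothelial-like class made up 5.10% of the cells. It gave 79.0% of all Flt4 UMIs, 62.4% of Flt1, 62.1% of Tie1, 60.1% of Kdr and 39.9% of Tek. For Nrp1 and Nrp2 the same cells gave 8.82% and 13.2% of the UMIs. The highest level of Nrp1 lay in amnion and extraembryonic mesenchyme-like cells (369 CPM), followed by cardiomyocyte-like cells (145 CPM). Nrp2 was highest in somitic mesoderm-like cells (109 CPM, 95% Poisson interval 103 to 116), next to endothelial-like cells (102 CPM, 97.0 to 107), and these intervals overlap. Vegfa was highest in allantois-like cells (76.4 CPM), above gut endoderm-like cells (57.3 CPM). Vegfc was highest in somitic mesoderm-like cells (49.0 CPM in tdTom+, 50.8 CPM in tdTom-), with allantois-like cells (47.6 and 50.4 CPM) within their intervals. Pgf was highest in allantois-like cells (80.1 CPM), followed by splanchnic and pharyngeal mesoderm-like cells (23.0 CPM). Receptors and ligands thus mostly peaked in different classes, although Nrp2 and Vegfc were both highest in somitic mesoderm-like cells. Kdr, the neuropilins and the ligands were found side by side in allantois-like cells. They were also found together in splanchnic and pharyngeal mesoderm-like cells (Kdr 51.6 and 46.3 CPM, Vegfa 21.0 and 19.0 CPM). The same held for amnion and extraembryonic mesenchyme-like cells (Kdr 28.2 and 29.0 CPM, Vegfa 55.5 and 56.9 CPM).

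**Figure D1:**
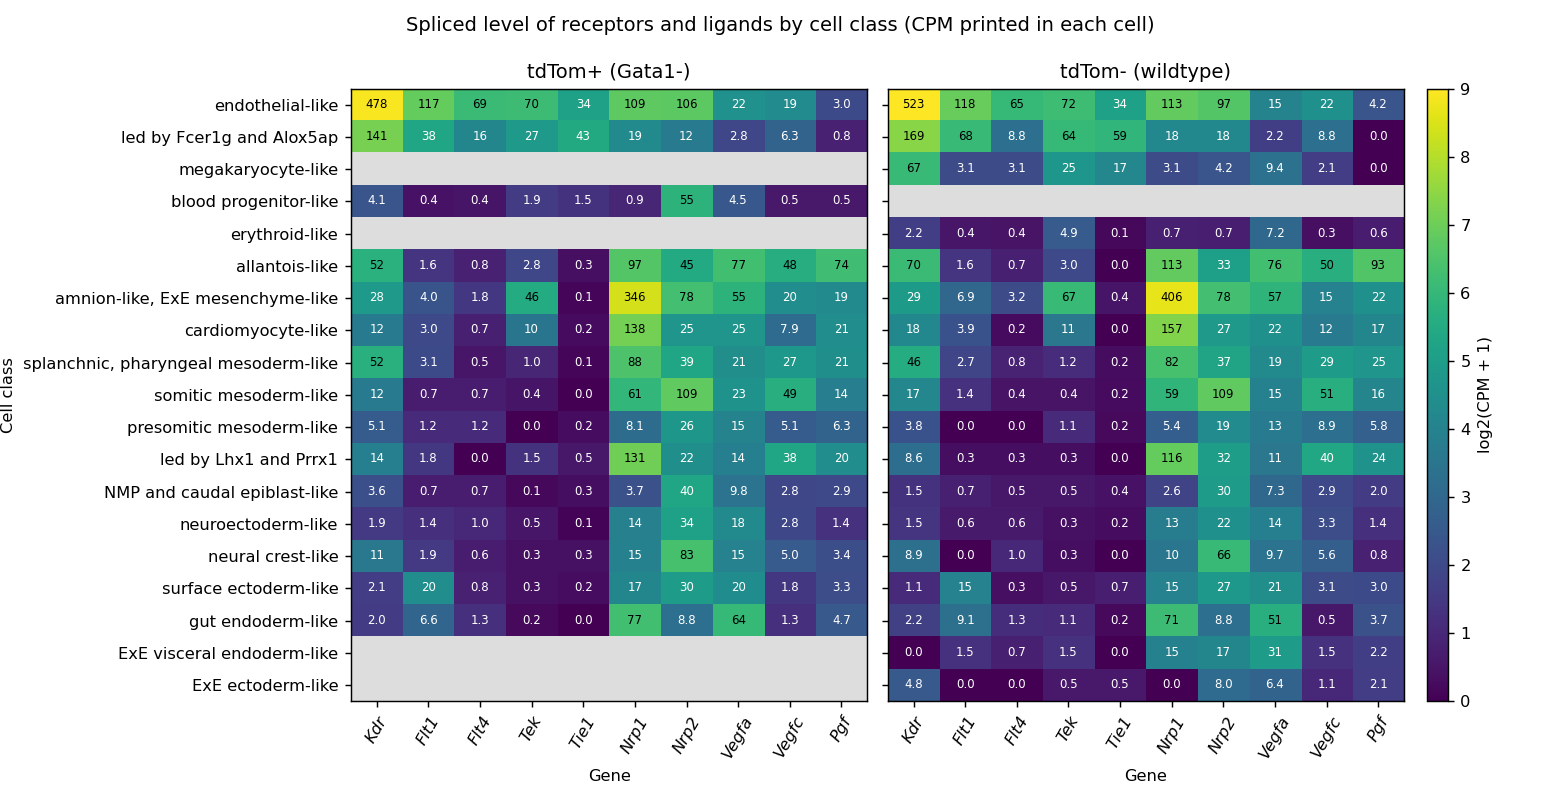
Heat map of the spliced level of the 10 genes (columns) by cell class (rows), with the tdTom+ fraction on the left and the tdTom- fraction on the right. The colour is log2(CPM + 1) and the number printed in a field is CPM. The primordial germ cell-like class and the cells led by Srgn and Col4a1 are not drawn, and classes with too few cells of a fraction are grey. Kdr, Flt1, Flt4 and Tek are highest in the endothelial-like row (Kdr 478 and 523 CPM). Tie1 is at 34.2 and 34.3 CPM in that row and at 43.5 and 59.3 CPM in the Fcer1g-led row. Nrp1 stands out in the amnion and extraembryonic mesenchyme-like row (346 and 406 CPM), Pgf and Vegfa in the allantois-like row, and Nrp2 in tdTom+ blood progenitor-like cells (55.0 CPM).

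The DNA just before the annotated start of 5 of these genes is shown because these genes stand for the patterns described. By class, over both fractions, Kdr, Flt1 and Tek were highest in endothelial-like cells and Vegfa in allantois-like cells. Nrp2 had the largest log2 fold between the fractions in blood, where Tek was also called, in the other direction. The sequences are from RefSeq (GRCm38.p6), 5' to 3' on the gene's strand, and all 10 genes matched its table of windows of 250 bases before the start; where a window reached into the annotated gene, the overlapping bases were left off. Capitals mark GGAA, or TTCC on the other strand, which is the core of binding sites of ETS factors such as ETV2 and SPI1. They also mark GATAA, or TTATC on the other strand, which is the core of GATA factor sites.
Kdr, chr5:75978459-75978705, minus strand: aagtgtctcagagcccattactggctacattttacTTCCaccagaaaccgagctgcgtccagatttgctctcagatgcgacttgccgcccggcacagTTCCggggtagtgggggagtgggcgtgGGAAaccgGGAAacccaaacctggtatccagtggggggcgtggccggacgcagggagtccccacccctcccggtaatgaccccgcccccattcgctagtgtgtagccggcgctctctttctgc
Flt1, chr5:147726012-147726261, minus strand: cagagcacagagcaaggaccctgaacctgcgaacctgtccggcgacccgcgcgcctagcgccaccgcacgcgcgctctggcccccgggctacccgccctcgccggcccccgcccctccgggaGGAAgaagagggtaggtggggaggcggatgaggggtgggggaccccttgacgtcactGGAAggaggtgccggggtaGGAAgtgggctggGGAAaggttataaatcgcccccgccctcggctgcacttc
Tek, chr4:94739039-94739288, plus strand: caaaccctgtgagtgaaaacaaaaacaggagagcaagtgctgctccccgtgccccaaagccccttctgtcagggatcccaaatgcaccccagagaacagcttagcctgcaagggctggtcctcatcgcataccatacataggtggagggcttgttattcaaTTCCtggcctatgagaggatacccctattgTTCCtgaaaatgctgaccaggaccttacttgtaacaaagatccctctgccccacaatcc
Nrp2, chr1:62703067-62703284, plus strand: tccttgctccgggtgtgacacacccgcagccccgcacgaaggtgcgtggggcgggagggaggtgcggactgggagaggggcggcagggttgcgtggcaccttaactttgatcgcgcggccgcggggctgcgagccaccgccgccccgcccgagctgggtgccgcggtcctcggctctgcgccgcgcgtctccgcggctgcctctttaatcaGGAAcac
Vegfa, chr17:46032378-46032627, minus strand: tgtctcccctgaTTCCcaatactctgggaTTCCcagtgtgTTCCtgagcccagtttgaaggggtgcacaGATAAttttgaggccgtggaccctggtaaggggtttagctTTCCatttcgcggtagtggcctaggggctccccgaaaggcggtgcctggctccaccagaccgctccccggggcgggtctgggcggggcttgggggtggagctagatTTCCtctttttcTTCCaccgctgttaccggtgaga
The Kdr and Flt1 stretches hold 4 GGAA cores each, that of Tek 2, that of Nrp2 1 and that of Vegfa 6. In the full windows 9 of the 10 genes had at least 1 GGAA core, Pgf being the exception, while 93.4% of 32851 windows over all genes hold it, with a median of 3 sites. The windows of Flt4, Nrp1 and Pgf lie inside the annotated gene. Vegfa and Pgf had 2 windows each, of which the first listed was read. GATAA occurred in 1 of the 10 genes, Vegfa, against 22.6% of all windows. ACGTG, the core of the hypoxia response element, occurred in 0 of the 10 and in 16.6% of all windows.

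Kdr was present in nearly every endothelial-like cell of both fractions. Its gene lies at chr5:75932827-75978458 (GRCm38, GENCODE vM21 annotation, minus strand, 30 exons in the longest transcript model). Its level in endothelial-like cells was 478 CPM (464 to 493, 4250 UMIs) and 523 CPM (505 to 541, 3263 UMIs). The tdTom+ level was slightly lower, with a log2 fold of -0.13 (-0.19 to -0.06). At least 1 Kdr UMI was found in 98.6% of tdTom+ and 98.1% of tdTom- endothelial-like cells, at median depths of 17012 and 15994 spliced UMIs. In neuroectoderm-like cells, which serve as the background here, these shares were 2.99% and 2.37% at median depths of 16553 and 14936. After thinning every cell to 5000 UMIs, Kdr was detected in 87.5% and 87.9% of endothelial-like cells against 0.613% and 1.01% of neuroectoderm-like cells.

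The other receptor kinases were at nearly equal levels in endothelial-like cells of the fractions. Flt1 (chr5:147561604-147726011, minus strand) was at 117 CPM (110 to 124) and 118 CPM (110 to 127), with a log2 fold of -0.02 (-0.16 to 0.12). Flt4 (chr11:49609263-49652739, plus strand) was at 68.9 and 65.0 CPM, a log2 fold of 0.08 (-0.10 to 0.27). Both intervals include 0. Tek (chr4:94739289-94874976, plus strand) was at 70.4 and 71.9 CPM, a log2 fold of -0.03 (-0.21 to 0.15). Tie1 (chr4:118471191-118490061, minus strand) was at 34.2 and 34.3 CPM, a log2 fold of -0.00 (-0.26 to 0.26). For each of these 4 receptors the counting intervals of the fractions overlap.

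Among the co-receptors and ligands of endothelial-like cells, the interval of Vegfa excluded 0 and those of the neuropilins and Vegfc did not. Nrp1 (chr8:128358604-128503363, plus strand, overlapping the microRNA gene Mir1903 on the same strand) was at 109 and 113 CPM, a log2 fold of -0.05 (-0.20 to 0.09). Nrp2 (chr1:62703285-62818695, plus strand) was at 106 and 96.6 CPM, a log2 fold of 0.13 (-0.02 to 0.28). Neither interval excludes 0. After thinning the log2 fold of Nrp1 was -0.28 (-0.54 to -0.01), and with both layers counted that of Nrp2 was 0.14 (0.03 to 0.24). Vegfa (chr17:46016993-46032369, minus strand) was at 22.3 CPM (19.3 to 25.6, 198 UMIs) and 15.2 CPM (12.3 to 18.6, 95 UMIs), a log2 fold of 0.55 (0.19 to 0.92). With the lowest class level of the gene subtracted in each fraction, as an upper limit of free RNA, the log2 fold of Vegfa was 1.28. The levels subtracted came from unlike classes, 2.78 CPM of Fcer1g-led cells in tdTom+ and 7.20 CPM of erythroid-like cells in tdTom-. With every cell thinned to 5000 UMIs the log2 fold of Vegfa was 0.15 (-0.56 to 0.88, 43 and 29 UMIs), an interval that includes 0. Vegfc (chr8:54077606-54187096, plus strand) was at 19.4 and 22.1 CPM, a log2 fold of -0.19 (-0.52 to 0.14). Pgf (chr12:85166635-85177790, minus strand) had 27 and 26 UMIs there and was not compared. Of the 9 genes compared in endothelial-like cells 0 were called, against a background of 0.614% of 7983 genes (49 called). Their median log2 fold was -0.02, the same as that of all genes compared (-0.02). The intervals of 2 of the 9, Kdr and Vegfa, excluded 0.

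**Figure D2:**
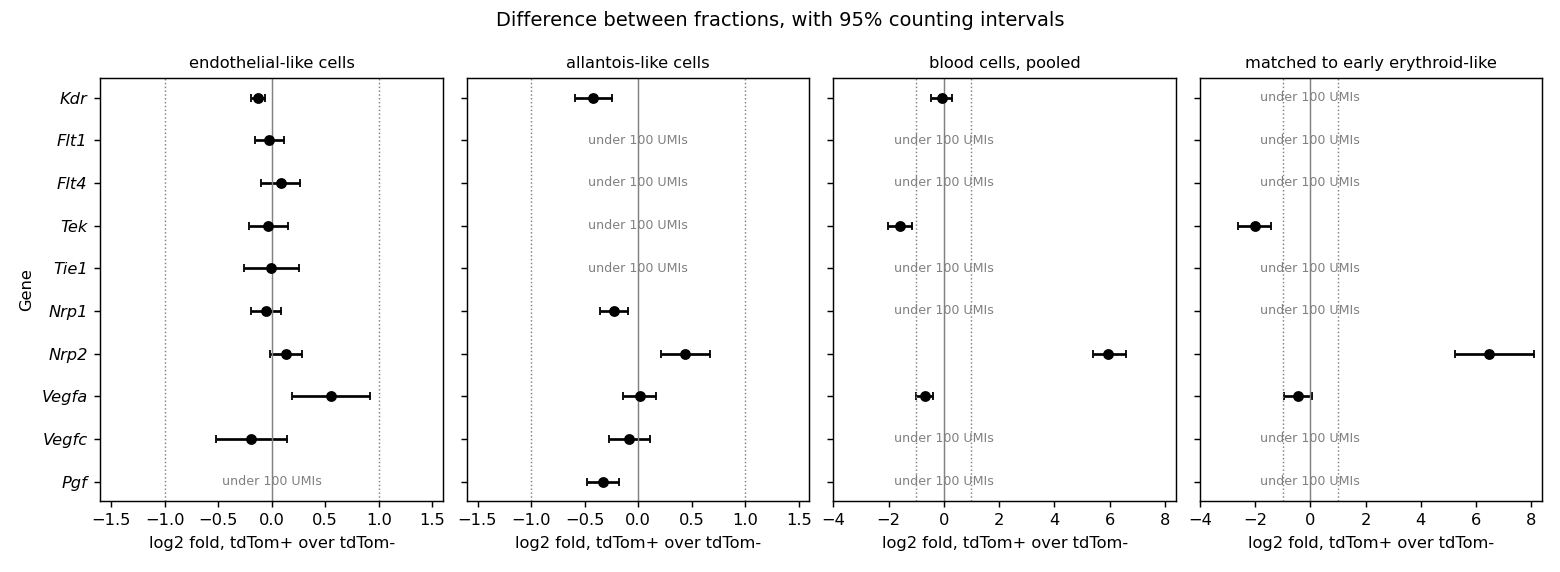
Log2 fold of tdTom+ over tdTom- for each gene compared (rows) in endothelial-like cells, allantois-like cells, pooled blood cells and blood cells matched to early erythroid-like cells (panels), as points with 95% exact counting intervals. In the endothelial-like panel the points lie between -0.19 (Vegfc) and 0.55 (Vegfa), while in the blood panels Nrp2 lies at 5.95 and 6.47 and Tek at -1.58 and -2.01.

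Within the endothelial-like class the kinases differed between sub-clusters, and largely in the same way in both fractions. The sub-clusters are named by their leading genes, which include Etv2, the transcription factor that starts the endothelial programme, Emcn, a sialoprotein of the mature endothelial surface, and Lyve1, a hyaluronan receptor. Kdr was highest in the 52 cells led by Etv2, Kdr and Gadd45g, at 573 CPM (519 to 632, 30 cells) and 786 CPM (704 to 876, 22 cells), too few for a comparison between fractions although these intervals do not overlap. It was at 495 and 563 CPM in the larger Etv2 and Gja4-led group, at 394 and 420 CPM in the Emcn-led group and at 464 and 416 CPM in the Lyve1-led group. So Kdr was lower in each of these groups than in the small group first named. Flt1 ran the other way, from 18.2 and 21.4 CPM in the Gadd45g-containing group, through 71.8 and 71.5 CPM (Gja4-led) and 177 and 164 CPM (Emcn-led), to 206 and 243 CPM in the Lyve1-led group. Tie1 ran from 2.80 and 0 CPM through 23.1 and 22.4 CPM and 19.4 and 27.5 CPM to 76.8 CPM (65.7 to 89.3) and 88.0 CPM (71.9 to 107) in the Lyve1-led group. Tek ran from 9.81 and 11.9 CPM in the Gadd45g-containing group to 115 and 139 CPM in the Lyve1-led group, with 61.5 and 62.8 CPM (Gja4-led) and 61.2 and 53.3 CPM (Emcn-led) between them. For Flt1, Tie1 and Tek the Lyve1-led level was thus the highest of the 4 groups in both fractions. Flt4 was at 53.3 CPM (37.7 to 73.1, 38 UMIs) and 21.4 CPM (9.78 to 40.6, 9 UMIs) in the Gadd45g-containing group, with 62.6 and 63.1 CPM in the Gja4-led, 76.9 and 84.1 CPM in the Emcn-led and 82.3 and 66.9 CPM in the Lyve1-led group.

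The neuropilins and ligands split the same sub-clusters differently. Nrp2 was lower in the Lyve1-led group (69.6 CPM in tdTom+, 60.9 CPM in tdTom-) than in the Gja4-led group (129 and 112 CPM). Nrp1 was at 142 and 138 CPM in the Lyve1-led and 83.3 and 95.3 CPM in the Gja4-led group. The neuropilins were therefore ordered oppositely between these groups in both fractions. Vegfa was lower in order from the Gja4-led group (28.7 and 20.1 CPM) over the Emcn-led (19.4 and 12.5 CPM) to the Lyve1-led group (11.4 and 6.77 CPM). Pgf had 0 UMIs in the Lyve1-led group of both fractions. In the 3 sub-clusters large enough for a comparison 0 genes were called, against backgrounds of 0.824% (Gja4-led), 0.656% (Emcn-led) and 0.945% (Lyve1-led). Intervals excluded 0 in the Gja4-led group for Kdr (-0.19), Nrp2 (0.20), Vegfa (0.52) and Vegfc (-0.52), and in the Lyve1-led group for Flt1 (-0.24).

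**Figure D3:**
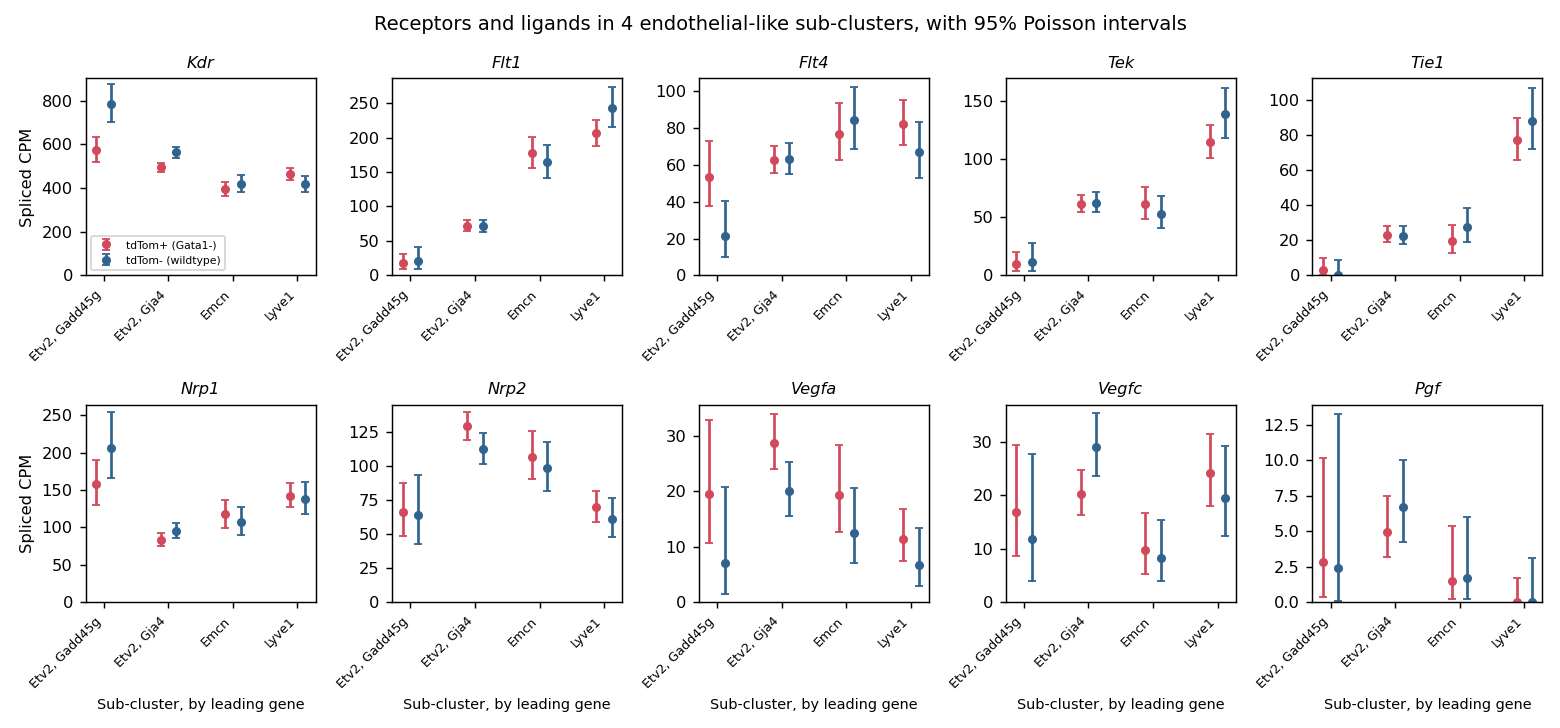
Spliced CPM (vertical axes from 0, 1 panel per gene) in the 4 endothelial-like sub-clusters, ordered along the horizontal axis by leading gene, for tdTom+ and tdTom- cells with 95% Poisson intervals. Flt1, Tek and Tie1 are highest in the Lyve1-led group (Tie1 76.8 and 88.0 CPM), Kdr is highest in the group led by Etv2, Kdr and Gadd45g (573 and 786 CPM, with intervals that do not overlap).

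Endothelial-like cells usually carried several receptor kinases at once. With every cell thinned to 5000 UMIs, the mean number of the 5 kinases detected was 2.05 in 487 tdTom+ and 2.02 in 364 tdTom- endothelial-like cells. At least 3 of them were detected in 33.1% and 31.6% of these cells, and 0 in 2.87% and 2.47%. The Lyve1-led cells had the most, with means of 2.61 and 2.57, against 1.83 and 1.93 in the Gja4-led and 2.00 and 1.91 in the Emcn-led group. In neuroectoderm-like cells 97.9% and 98.2% had 0 of the 5. The Fcer1g-led cells stood between these extremes, with 0 kinases in 38.0% of the tdTom+ cells and a mean of 0.922.

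That Fcer1g-led sub-cluster carried Tie1 at a level as high as the endothelial-like class taken whole. Tie1 was at 43.5 CPM (37.2 to 50.5) in its 207 tdTom+ cells and at 59.3 CPM (39.1 to 86.3) in its 28 tdTom- cells, and its 1.36% of all cells gave 23.9% of Tie1 UMIs. Over both fractions its Tie1 level of 45.1 CPM (39.1 to 51.9) was above the 34.2 CPM of the endothelial-like class. It was below the 80.7 CPM (71.5 to 90.9) of the Lyve1-led endothelial-like sub-cluster. Kdr was at 141 and 169 CPM in the Fcer1g-led cells and Flt1 at 38.4 and 68.1 CPM. Both are well below the endothelial-like level. With 28 tdTom- cells no comparison between the fractions was made.

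Outside the endothelium, Flt1 was found without Kdr in a surface ectoderm-like cluster led by Tac2, Wnt6 and Anxa2 (118 tdTom+ and 54 tdTom- cells). In this cluster 5 of 8 surface ectoderm markers were raised, but also 5 markers of amnion and extraembryonic mesenchyme. Its name rests on 1 surface ectoderm marker, Wnt6, among its leading genes, so its identity is not settled. Flt1 was at 102 CPM (87.8 to 117) and 140 CPM (115 to 168) in this cluster, a log2 fold of -0.46 (-0.80 to -0.12) that was not called (background 0.855%). Kdr had 0 UMIs in both fractions, with upper limits of 1.92 and 4.49 CPM, and Tek had 0 as well. This is the level of Flt1 seen in the endothelium, in cells in which Kdr was not detectable at this depth. The surface ectoderm-like class gave 14.5% of all Flt1 UMIs. After thinning, 9.31% of the tdTom+ and 5.44% of the tdTom- cells of this class had Flt1 without Kdr. The Tac2-led cluster held 118 of its 752 tdTom+ and 54 of its 637 tdTom- cells, so the class was made up differently in the fractions. Over the whole class the log2 fold of Flt1 was 0.44 (0.14 to 0.74), opposite in sign to that in the Tac2-led cluster. The unspliced share of Flt1 in the Tac2-led cluster was 59.5% and 54.2%, so both layers held the gene.

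Tek and Nrp1 were also expressed in amnion and extraembryonic mesenchyme-like cells (634 tdTom+ and 421 tdTom- cells), which gave 35.1% of Tek and 34.1% of Nrp1 UMIs. Nrp1 was at 346 CPM (334 to 357) and 406 CPM (391 to 422), a log2 fold of -0.23 (-0.31 to -0.16). Tek was at 45.7 CPM (41.7 to 49.9) and 66.5 CPM (60.6 to 73.0), a log2 fold of -0.54 (-0.73 to -0.36). Both were lower in tdTom+ cells by more than counting error. In the cluster led by Postn, the gene of a matrix protein (199 and 152 cells), Tek was at 78.5 and 126 CPM (log2 fold -0.69, -0.93 to -0.44) and Nrp1 at 345 and 490 CPM (-0.51, -0.63 to -0.39). The endothelial-like class had Tek at 70.4 and 71.9 CPM, so Tek was not lower in the Postn-led cluster. In the cluster led by Tdo2, Lum and Col3a1 (306 and 174 cells) the log2 fold was -0.17 (-0.48 to 0.16) for Tek and -0.11 (-0.22 to -0.01) for Nrp1. In the cluster led by Hlx, Tmem158 and Foxf1 (129 and 95 cells) Nrp1 was at 267 and 256 CPM (0.06, -0.13 to 0.25) and Tek at 8.79 and 8.22 CPM (20 and 12 UMIs, not compared). The lower levels of the tdTom+ cells were thus not seen in each of the 3 clusters. Tie1, the partner of Tek, had 0.0932 and 0.439 CPM in the whole class (1 and 3 UMIs). In the Postn-led cluster 1 of 7 genes compared was called, Vegfc at 22.7 and 10.3 CPM (75 and 25 UMIs, log2 fold 1.15, 0.48 to 1.86), against a background of 1.82%.

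The allantois, the bud of mesoderm that forms the umbilical vessels, held the ligands. In allantois-like cells Vegfa was at 76.7 CPM (72.0 to 81.5) and 76.0 CPM (69.5 to 82.9). Vegfc was at 47.6 and 50.4 CPM. Pgf was at 73.8 CPM (69.2 to 78.6) and 92.6 CPM (85.4 to 100). The class gave 22.6% of all Vegfa, 24.8% of Vegfc and 42.7% of Pgf UMIs. Of the receptors, Kdr was at 52.1 and 69.7 CPM, Nrp1 at 96.6 and 113 CPM and Nrp2 at 44.7 and 32.9 CPM, while Flt1 (1.59 and 1.65 CPM), Flt4 (0.757 and 0.748 CPM), Tek (2.80 and 2.99 CPM) and Tie1 (0.303 and 0 CPM) were near 0. Of 6 genes compared 0 were called, against a background of 0.804% of 8461 genes, with a median log2 fold of -0.16 beside -0.01 for all genes. Intervals excluded 0 for Kdr (-0.42, -0.59 to -0.25), Nrp1 (-0.23, -0.36 to -0.10), Nrp2 (0.44, 0.22 to 0.67) and Pgf (-0.33, -0.47 to -0.18).

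These 4 differences did not all hold inside the clusters that make up the allantois-like class. The cluster led by Pitx1, Spin2c and Phlda2 held 350 tdTom+ and 264 tdTom- cells and the one led by Nxf7, Plac1 and Tbx4 held 393 and 134, so the class was made up differently in the fractions. Kdr was at 84.5 and 95.6 CPM in the Pitx1-led cluster, a log2 fold of -0.18 (-0.36 to 0.01), and at 21.0 and 14.5 CPM in the Nxf7-led cluster, where the log2 fold was 0.53 (-0.04 to 1.14). The lower Kdr of the whole class thus had no counterpart in the Nxf7-led cluster, and neither interval excluded 0. Nrp2 was higher in tdTom+ cells of both clusters, with log2 folds of 0.33 (0.06 to 0.61) and 0.84 (0.40 to 1.30). Pgf was lower in both, with log2 folds of -0.59 (-0.80 to -0.38) and -0.32 (-0.53 to -0.10). Nrp1 differed in the Nxf7-led cluster alone (109 and 161 CPM, -0.57, -0.76 to -0.38, against -0.11, -0.30 to 0.08), and Vegfc in the Pitx1-led cluster (31.0 and 45.9 CPM, -0.57, -0.85 to -0.28). Vegfa differed in neither, at 61.8 and 67.3 CPM and at 91.0 and 94.5 CPM. In each of these clusters 0 of 6 genes were called, against backgrounds of 0.82% and 1.66%. Kdr and the ligands were thus ordered oppositely between the clusters: the Pitx1-led cells had more Kdr, and the Nxf7-led cells more Vegfa, Pgf and Vegfc.

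In the pooled blood cells, which leave out the Fcer1g-led cells, 9 of the 10 genes were at or below 7.26 CPM in both fractions. Nrp2 stood out in tdTom+ cells. Its level was 54.9 CPM (52.3 to 57.5, 1710 UMIs) against 0.889 CPM (0.575 to 1.31, 25 UMIs), a log2 fold of 5.95 (5.38 to 6.58). The pooled groups differ in makeup, as given above, so that a difference between blood progenitor-like and erythroid-like cells cannot be told apart from one between the fractions. With called doublets kept, tdTom- blood cells had 94 Nrp2 UMIs and the log2 fold was 4.24. Tek went the other way, at 1.96 CPM (61 UMIs) against 5.83 CPM (164 UMIs), a log2 fold of -1.58 (-2.02 to -1.14). At a Leiden resolution of 1 it was -0.50 (-0.81 to -0.19) and not called. Vegfa was at 4.49 and 7.26 CPM (-0.69, -1.01 to -0.37, and 4.91 after subtraction of the lowest class level, which in tdTom- is that of erythroid-like cells themselves) and Kdr at 4.14 and 4.38 CPM (-0.08, -0.45 to 0.29). Nrp2 and Tek were the 2 called of 4 genes compared, against a background of 12.1% of 9110 genes, 8.7% higher and 3.44% lower. This depended on the clustering. At a Leiden resolution of 1, Kdr was called higher beside Nrp2 (1.48, 1.24 to 1.71, 663 and 194 UMIs). So were Flt1 (1.69), Tie1 (1.97) and Nrp1 (1.35), and the share of all genes called at that resolution is not given.

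To compare cells of more like stage, the tdTom+ blood cells whose nearest tdTom- blood cells were mostly of 1 early erythroid-like sub-cluster were set against that sub-cluster. This took in 1246 tdTom+ cells, 87.9% of the tdTom+ blood cells, and 382 tdTom- cells. The same procedure returned 94.5% of the tdTom- cells of that sub-cluster to it, a figure that concerns tdTom- cells alone. With cosine distance 62.6% of the tdTom+ blood cells were taken in (887 cells), and 79.3% of the tdTom- cells were returned. Each tdTom+ cell could only be matched to tdTom- blood cells, mostly erythroid-like, so a match does not show a like stage. A difference between progenitor-like and erythroid-like cells still cannot be told apart from one between the fractions. Nrp2 was at 57.3 CPM (54.5 to 60.2, 1585 UMIs) against 0.644 CPM (0.209 to 1.5, 5 UMIs), a log2 fold of 6.47 (5.25 to 8.10), and of 3.49 with called doublets kept. Tek was at 1.70 CPM (47 UMIs) and 6.83 CPM (53 UMIs), a log2 fold of -2.01 (-2.61 to -1.41). Vegfa was at 4.41 and 6.06 CPM (-0.46, -0.95 to 0.06). Again Nrp2 and Tek were called, 2 of 3 genes compared, against a background of 9.31% of 8398 genes, 6.44% higher and 2.87% lower. Tek rests on exactly the 100 UMIs needed for a comparison.

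The Nrp2 signal was spread over the tdTom+ blood cells but not evenly. At least 1 UMI was found in 50.9% of tdTom+ blood progenitor-like cells (median depth 21556 spliced UMIs) and in 1.29% of tdTom- erythroid-like cells (19098). Gut endoderm-like cells, in which Nrp2 was lowest in the tdTom+ library, had it in 10.3% of tdTom+ and 9.29% of tdTom- cells (14373 and 13029). After thinning to 5000 UMIs the shares were 21.1% and 0.294% in the blood classes and 2.31% and 4.26% in gut endoderm-like cells, so the tdTom+ blood share was above and the tdTom- blood share below this background class. Nrp2 was at 74.6 CPM (69.5 to 80.0) and 75.6 CPM (69.5 to 82.2) in the progenitor-like sub-clusters led by Slc32a1 and Car2 (490 and 342 cells), and at 43.3 CPM (38.4 to 48.7) in the Myb-led one (275 cells). It was lowest, at 9.92 CPM (7.57 to 12.8), in the 269 cells led by Spi1, which encodes the myeloid transcription factor PU.1. These intervals do not overlap between the Slc32a1-led, Myb-led and Spi1-led groups. The tdTom- erythroid-like sub-clusters lay between 0 and 0.838 CPM and the megakaryocyte-like cells at 4.2 CPM (1.14 to 10.8). Unspliced Nrp2 UMIs showed the same contrast, with 1792 in tdTom+ and 31 in tdTom- blood cells. The gene overlaps the annotated genes Gm37121 on its own strand and Gm29083 on the other, and the total Cell Ranger count of Nrp2 over all barcodes was 1.54 times the spliced count, so the value depends on how the reads in this locus were assigned.

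Tek was highest in the blood cells that stood apart from the main erythroid groups. It was at 25.2 CPM (16.1 to 37.5) in tdTom- megakaryocyte-like cells and at 18.2 CPM (10.6 to 29.2) in 55 tdTom- erythroid-like cells led by Hbb-y and Cdkn1a. The other erythroid-like sub-clusters of that fraction had 3.57, 6.83 and 3.34 CPM. The tdTom+ progenitor-like sub-clusters had between 1.07 and 4.95 CPM. Kdr was at 67.2 CPM (51.7 to 85.8) in the megakaryocyte-like cells and at 14.7 CPM in the Spi1-led cells, and Tie1 at 16.8 and 5.29 CPM. Where the Fcer1g-led cells are counted as blood, the log2 fold of Tek is -0.49, that of Kdr 1.48, and 5 genes are called. The share of all genes called in that enlarged group is not given, and it gains 207 tdTom+ but 28 tdTom- cells.

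**Figure D4:**
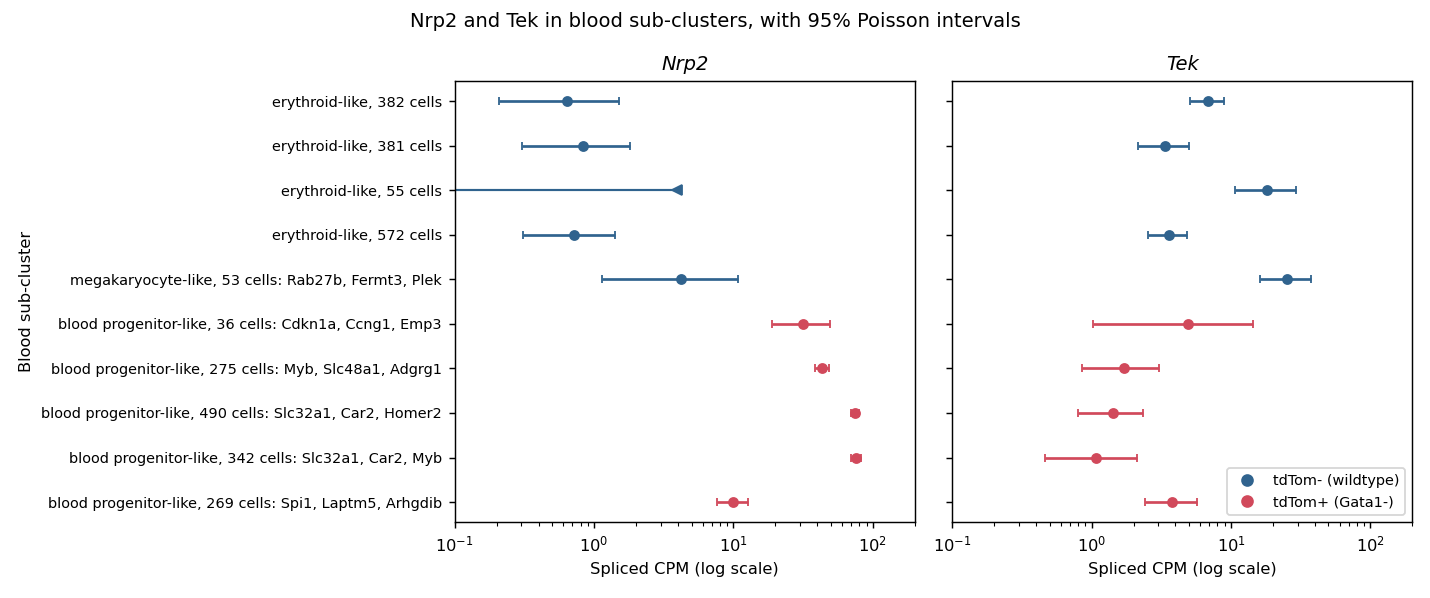
Spliced CPM of Nrp2 (left) and Tek (right) on a log axis for each blood sub-cluster (rows, with its class and number of cells, and leading genes outside the erythroid-like class), as points with 95% Poisson intervals, coloured by fraction (triangle, upper limit where the count was 0). For Nrp2 the tdTom+ sub-clusters lie between 9.92 and 75.6 CPM and the tdTom- ones at or below 4.2 CPM, and for Tek the highest points are tdTom- megakaryocyte-like cells (25.2 CPM) and the 55 Hbb-y and Cdkn1a-led cells (18.2 CPM).

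Outside blood the differences were small for the genes compared in each class that both fractions shared. Genes with too few UMIs for a comparison were left out. Some of these had log2 folds beyond 1 with intervals that excluded 0, each higher in tdTom+ cells. Examples are Kdr in neuromesodermal progenitor-like cells (1.29, 0.26 to 2.41, 27 and 12 UMIs) and Pgf in neural crest-like cells (2.16, 0.24 to 4.64, 11 and 3 UMIs). Over 13 classes of both fractions 62 log2 folds could be given for the 10 genes. They ranged from -0.60 to 0.66, 0 were beyond 1 (over all genes, 0.715% of 103874 folds in these classes were), and 23 intervals excluded 0. Nrp2 had 6 such intervals in 13 classes, with its highest log2 fold of 0.66 in neuroectoderm-like cells (34.4 and 21.8 CPM) and its lowest of -0.55 in cells led by Lhx1 and Prrx1 (21.6 and 31.6 CPM). Vegfa had 4 in 11 classes, between -0.10 (surface ectoderm-like) and 0.65 (somitic mesoderm-like, 22.9 and 14.6 CPM). Kdr had 5 in 6 classes and lay between -0.56 in cardiomyocyte-like cells (11.9 and 17.6 CPM) and 0.16 in splanchnic and pharyngeal mesoderm-like cells (51.6 and 46.3 CPM). The intervals that excluded 0 lay on both sides of 0 for Nrp2 and Kdr, whereas the 4 of Vegfa by class all lay above 0. Inside the amnion and extraembryonic mesenchyme-like class Vegfa went both ways. Its log2 fold was -0.26 (-0.49 to -0.03) in the Tdo2-led and 0.58 (0.05 to 1.13) in the Postn-led cluster. After thinning to 5000 UMIs, the log2 fold of Kdr in cardiomyocyte-like cells was 0.46 and that of Vegfa in somitic mesoderm-like cells -0.12. The thinned values rest on fewer UMIs than the full counts, and the cause of these 2 changes of sign was not tested.

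A wider list of 37 genes of these pathways was read in the same way. In endothelial-like cells 18 of them could be compared, 1 was higher in tdTom+ and 0 were lower (0.614% of all genes were called), with a median log2 fold of 0.12. That gene was Esm1, a proteoglycan gene of endothelial tip cells, at 11.9 and 5.76 CPM (log2 fold 1.05, 0.49 to 1.64). Its 106 and 36 UMIs came from 28 of 507 and 10 of 376 cells, which the counting interval does not take into account. Of the 6 listed genes known to be raised by VEGF signalling in endothelium, 5 could be compared, with a median log2 fold of 0.62. They were chosen with earlier results of these data known, and whether VEGF signalling differed was not tested. Besides Esm1, Dll4, a Notch ligand, was at 23.6 and 15.4 CPM (0.62, 0.27 to 0.98), and Apln, the ligand of the apelin receptor, at 24.2 and 15.1 CPM (0.68, 0.33 to 1.05). Nos3, the endothelial nitric oxide synthase, was at 26.3 and 22.7 CPM (0.21, -0.10 to 0.52). Aplnr, the apelin receptor, was lower in tdTom+ cells, at 9.34 and 13.9 CPM (-0.58, -1.03 to -0.13). The intervals of Esm1, Dll4 and Apln lay above 0 and that of Aplnr below it. Within the Gja4-led, Lyve1-led and Emcn-led sub-clusters 10, 12 and 6 of the 37 genes could be compared. There 0 were called, against 0.824%, 0.945% and 0.656% of all genes.

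The remaining groups of the list showed smaller differences in the endothelium. Vegfb, another ligand of FLT1, was at 79.6 and 93.2 CPM (-0.23, -0.39 to -0.07). Plxnd1, a plexin that signals with the neuropilins, was at 79.7 and 80.4 CPM (-0.01, -0.18 to 0.15), and Plxna1 and Plxna2 had log2 folds of -0.04 and 0.17. Of the receptor partners, Gipc1, which binds neuropilin tails, was at 130 and 136 CPM, the adapter Nck1 at 65.9 and 60.5 CPM, and Ptprb, the phosphatase that acts on TEK, at 18.2 and 20.7 CPM. Of these genes the interval of Vegfb alone excluded 0. Of the regulators of the response to low oxygen, the prolyl hydroxylase gene Egln1 was at 187 and 172 CPM (0.13, 0.01 to 0.24), Egln3 at 46.4 and 44.7 CPM and Hif1a at 30.8 and 26.6 CPM. Class 3 semaphorins had too few UMIs for a comparison, 0 of 7 in endothelial-like, allantois-like and blood cells. In allantois-like cells 14 of the 37 could be compared, 0 were called, and the median log2 fold was -0.01.

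In blood 15 of the 37 genes could be compared, 2 were higher and 1 was lower in tdTom+ cells (over all genes 8.7% and 3.44%), with a median log2 fold of 0.37 beside 0.19 for all genes. Plxnd1 was at 0.834 against 22.6 CPM (-4.76, -5.39 to -4.20). Angpt1, the activating ligand of TEK, was at 6.00 and 0.605 CPM (3.31, 2.59 to 4.12), and Egln3 at 22.4 and 4.09 CPM (2.46, 2.17 to 2.75). In the matched cells the same genes had log2 folds of -4.61 (-5.33 to -3.96) for Plxnd1, 4.92 (2.41 to 10.24) for Angpt1, which had 108 and 1 UMIs, and 2.44 (1.92 to 3.01) for Egln3. The tdTom+ blood cells thus had more Nrp2 and Angpt1 and less Plxnd1 and Tek than the tdTom- blood cells in both comparisons.

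The 10 genes differed widely in the share of their captured UMIs that was unspliced, which need not be the share of their RNA. Over all barcodes 13.2% of UMIs were unspliced, and the median over 11106 genes with at least 500 spliced UMIs was 16.4%. Vegfc (69.8%), Flt1 (68.3%) and Tek (61.2%) were mostly unspliced, Nrp2 (48.6%) and Nrp1 (46.6%) about evenly split, Flt4 at 35.6% and Tie1 at 34.9%. Kdr (10.6%), Vegfa (5.35%) and Pgf (1.2%) lay below the median gene. For Flt1 the total Cell Ranger count was 1.46 times the spliced count, against a median of 1.04 over these 11106 genes. Its share, like that of Nrp2, therefore depends on how the reads were assigned. The share of a gene also varied between classes. Nrp1 ranged from 37.7% (36.8 to 38.6) in amnion and extraembryonic mesenchyme-like cells, where its spliced level was highest, to 62.9% (54.0 to 71.1) in neuromesodermal progenitor-like cells. Flt1 ranged from 51.3% in gut endoderm-like to 71.2% (70.0 to 72.3) in endothelial-like cells, where its spliced level was highest. Tek was lowest in amnion and extraembryonic mesenchyme-like cells (53.6%) and highest in erythroid-like cells (68.4%). The Kdr share stayed between 8.05% and 14.6%.

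**Figure D5:**
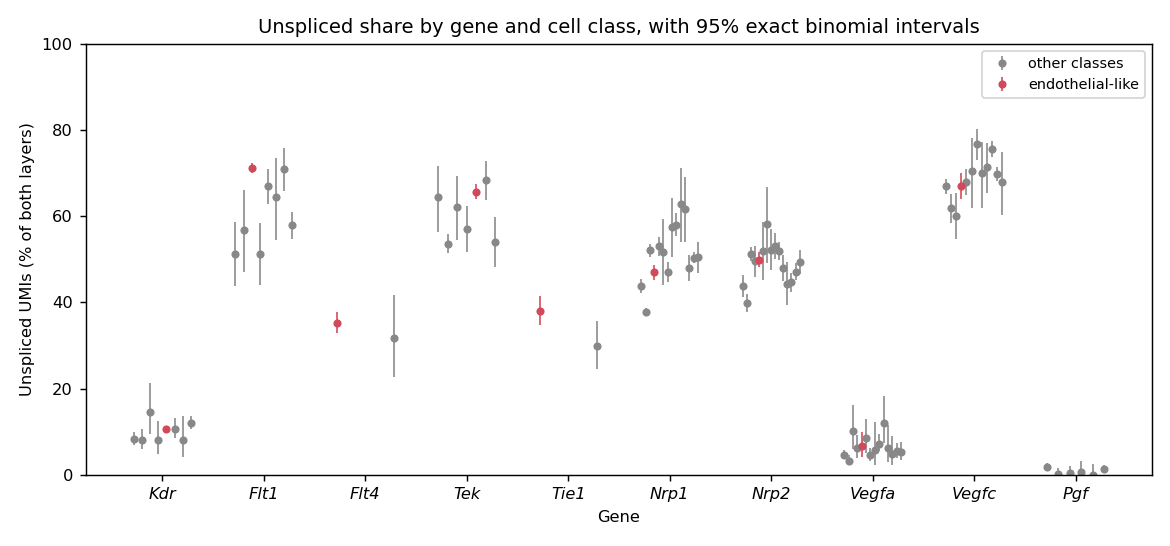
Unspliced UMIs as a percent of both layers (vertical axis) for each of the 10 genes (horizontal axis), with 1 point per cell class with at least 100 UMIs of the gene in both layers together (endothelial-like in red) and 95% exact binomial intervals. Vegfc, Flt1 and Tek lie above 50% in every class drawn, while Kdr, Vegfa and Pgf stay at or below 14.6%.

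The genes most like each member were sought among 10942 genes by the Pearson correlation of log2(CPM + 1) over the 36 clusters, pooled over fractions, as a description. The clusters share the same 2 libraries and many are of related cell types, so these are no independent points. Kdr was most like Etv2 (r = 0.84), Eng (0.84) and Tm6sf1 (0.81), and Flt4 most like Erg (0.91), She (0.90) and Gpr182 (0.90). Tie1 was most like Ctla2b (0.98), Icam2 (0.95) and Grap (0.93). Tek was most like Pecam1 (0.78), Cebpd (0.76) and Hspa12b (0.76), and Flt1 most like Hgsnat (0.87), Myzap (0.82) and Cebpd (0.75). The partners of Flt4 and Tie1 include endothelial genes, among them Erg, Icam2 and Gpr182. Of the endothelial markers used for naming, Icam2 was a partner of Tie1 and Pecam1 of Tek. The partners of Kdr, Flt4 and Flt1 included none of these markers. Vegfc was most like Twist1 (0.90), Tmem119 (0.88) and Twist2 (0.83), and Pgf most like Twist2 (0.90), Daam2 (0.88) and Pdgfrb (0.86), which encodes a receptor of mesenchymal cells. Vegfa was most like Phldb2 (0.84), Smarca1 (0.78) and Tmem98 (0.77). Nrp1 was most like Phactr2 (0.91), Nhsl2 (0.88) and Mirg (0.86), and Nrp2 had the loosest matches, Impact (0.72), Mest (0.70) and Pitpnb (0.69). Among the 10 genes themselves the closest pair was Vegfc with Pgf (0.81), followed by Flt4 with Tie1 (0.74), and the lowest value was that of Tie1 with Vegfa (-0.40).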

How the data were processed

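Droplet-based scRNA-Seq (10x Genomics, v3 chemistry) was carried out on 1 library of tdTom+ and 1 of tdTom- cells. Reads were aligned by the authors with Cell Ranger 3.0.2 to mm10 (GRCm38), barcodes were selected with emptyDrops and by depth and mitochondrial content, and velocyto split the molecules. The deposited layers are unnormalized UMI counts of spliced and unspliced molecules. The deposited quality metrics hold Cell Ranger counts per cell and the percent of mitochondrial UMIs (medians 2.07% and 2.08%), and 8983 and 9256 cells of the fractions, of which a few had no row in the count tables. Every column used belonged to a labelled fraction (0 were not matched).

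Doublets were called with Scrublet through scanpy within each library (377 tdTom+ cells, 4.20%, and 518 tdTom- cells, 5.60%) and left out with 1 cluster of which 91.8% had been called. Spliced counts were scaled to 10000 per cell and logged, and 2122 variable genes, 50 components, 20 neighbours and a Leiden resolution of 1.5 gave 36 clusters. The 3983 blood and endothelial cells were clustered again (2127 genes, 30 components, 15 neighbours, resolution 1) into 15 sub-clusters. The 10 genes and the 37 of the pathway list, 47 in all, were left out of clustering. A name needed at least 3 markers raised at least 2-fold with 10 CPM added, and cells whose leading genes went against it stayed unnamed. Cell types of the authors were not used here, so rebuilt names can differ from theirs. Matching used the 15 nearest tdTom- blood cells.

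Levels are CPM of the spliced UMIs of all cells in a group, with exact Poisson intervals, and log2 folds have exact conditional 95% intervals. Shares have exact binomial (Clopper-Pearson) intervals. Intervals cover counting error only. Thinning drew 5000 spliced UMIs per cell and left out shallower cells. An unspliced share needed at least 20 UMIs. The fold intervals were run on simulated Poisson counts, the model that they assume. Those simulated counts leave out any spread between cells or embryos. Counts of 3' tags depend on the annotation of transcript ends. Coordinates are from GENCODE vM21 and RefSeq, both on GRCm38.

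The members and lists were chosen with earlier results of these data known. Named are the 10 genes, the 3 most alike of each, leading genes of a described cluster, and from the pathway list the genes called in endothelial-like, allantois-like or blood cells and up to 3 per group with the most UMIs in endothelial-like cells. Dll4, Apln, Aplnr and Nos3 are named as the compared rest of a group of 6. Vegfc in the Postn-led cluster, the clusters within the allantois and the doublet-free and doublet-containing values of Nrp2 were singled out after their values were seen. Tools were Python 3.11.15, scanpy 1.11.5, leidenalg 0.10.2, scikit-learn 1.9.0, scipy 1.17.1, numpy 2.4.6 and matplotlib 3.10.9.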

Additional observations from a re-analysis of the deposited data

How the results depend on the processing

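With 1 library per fraction no replicate could be left out. No paired analysis was possible because each fraction has a single library and no result comes from a test. Of the 69 log2 folds in the classes and blood comparisons, 4 were beyond 1. Counts of genes beyond 1 changed as follows, and shares over all genes under these settings are not given. In blood, 2 became 1 after thinning to 5000 UMIs, because Tek fell under 100 UMIs, 5 at resolution 1, and 5 with the Fcer1g-led cells added (an alternative chosen after seeing the data), with Kdr, Flt1, Tie1, Nrp1 and Nrp2 higher in both and Tek no longer called (-0.50 and -0.49). The free RNA subtraction described next made 3 in blood, with Vegfa added. In the matched cells, 2 became 1 after thinning, at resolution 1, with cosine distance and after subtracting, in each fraction, the gene's lowest class level as an upper limit of free RNA, and 3 with called doublets kept, where the log2 fold of Kdr was -1.17 (89 and 75 UMIs). At thinning, resolution 1 and cosine distance Tek kept its direction with too few UMIs to count, and at the subtraction Nrp2 in tdTom- cells was at or under the subtracted level. The subtraction also gave 1 in endothelial-like cells, Vegfa at a log2 fold of 1.28, and 10 in all. It takes away too much where every class expresses the gene. The log2 fold of Nrp2 lay between 4.24 (called doublets kept) and 7.94 (subtraction) in blood and between 3.49 (called doublets kept) and 6.65 (cosine distance) in the matched cells, where thinning left 0 tdTom- UMIs and a bound of 5.14 against 3 counts. No log2 fold beyond 1 changed its sign under any alternative run. In endothelial-like cells the interval of Vegfa included 0 after thinning (0.15). Smaller folds changed sign, among them Kdr in cardiomyocyte-like cells (-0.56, and 0.46 after thinning), Vegfa in somitic mesoderm-like cells (0.65, and -0.12 after thinning) and Vegfa in blood (-0.69, and 4.91 after the subtraction). The log2 fold of Nrp2 in the Lhx1 and Prrx1-led cells was -1.27 after the subtraction. Using both layers together changed none of the 69 folds beyond its interval, and 5 instead of 4 genes were then highest in the endothelial-like class. Other settings moved more folds beyond their intervals. Thinning the spliced UMIs moved 15 (54 stayed), thinning both layers 22 (65 stayed) and the subtraction 20 (46 stayed). Thinning leaves fewer UMIs, so a fold can leave the interval of the full counts through the draw alone. The numbers moved by thinning therefore do not measure an effect of depth. Resolution 1 moved 7 (58 stayed), resolution 2.5 moved 6 (63 stayed) and keeping called doublets 2 (67 stayed). The minimum of 100 UMIs limited the comparisons of Flt4 and Tie1 to 1 class, of Flt1 and Tek to 3 and of Kdr and Pgf to 6. Over both fractions Flt4 and Tie1 were under 5 CPM in 18 and 16 of 20 classes. Counting intervals say nothing about the spread between embryos, which were pooled.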
